A study of Homo sapiens with 40 samples.

Results

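The actin cytoskeleton and contractility genes described here are 48 genes chosen by their symbols, all of which were present among the 12655 genes of the count table. They encode actin itself, the proteins that hold, cap, bundle or branch its filaments, nonmuscle myosin II, tropomyosins and calponins, focal adhesion proteins, and the small GTPases and kinases that direct them. Actin monomers assemble into filaments that push the cell edge forward, while myosin II pulls on filaments that tropomyosins decorate and focal adhesions anchor to the matrix. Small GTPases switch between these activities, and squamous carcinoma cells are known to use both when they move into collagen. Many of these genes are targets of serum response factor, which binds a DNA element called the CArG box and whose coactivators are held back by free actin monomers.

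The series asks how the epidermal growth factor (EGF) receptor drives local invasion in head and neck cancer and what cetuximab does to it. Spheroids of the human squamous carcinoma lines Kyse30, from the oesophagus, and FaDu, from the hypopharynx, carried the photoconvertible fluorescent protein Dendra2 and were kept in type I collagen for 72 h. In each line, 4 libraries came from spheroids given 9 nM EGF with 100 nM of AZD6244, an inhibitor of the kinase MEK, and 4 from spheroids given 9 nM EGF with 10 µg/mL cetuximab, an EGF receptor antibody. Another 4 came from invasive and 4 from non-invasive cells sorted after photoconversion from spheroids given 9 nM EGF alone, and 4 from spheroids in serum-free medium without EGF. Both lines are single established lines, and the overlay and culture medium held no serum in any group. Samples from serum-free medium or given either agent are labelled unselected, so that in every comparison of these with invasive or non-invasive cells the treatment and the selection cannot be told apart. A label on cell selection describes invasive cells for both sorted groups, and the division between them rests on the sample titles.

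Total counts ran between 2538447 and 4534339 per Kyse30 library, with invasive replicate 1 far lower at 463124, and between 2312126 and 5669262 per FaDu library. In invasive Kyse30 replicate 1 26.6% of counts were mitochondrial and 8.18% came from the nuclear RNA MALAT1. Replicates 1 and 3 of the non-invasive cells of this line also stood apart, with 17.4% and 19.3% mitochondrial counts against 8.22% and 8.95% in replicates 2 and 4. Kyse30 results are therefore given over all 20 libraries and, named as such, over the 17 libraries without these 3, where the non-invasive group keeps 2. All 10 markers of squamous epithelium were in the table that holds both lines. Their summed level was 1230 to 5020 CPM (each count divided by its library's scaled total) in Kyse30 and 4890 to 8900 CPM in FaDu. Of 10 fibroblast or muscle markers COL1A1 and ACTA2 were in the table, and their summed level was 0 to 19.0 CPM in Kyse30 and 5.81 to 26.7 CPM in FaDu. Of 5 leukocyte markers CD68 was present, at 0.321 to 53.7 CPM in Kyse30 and 0 to 10.9 CPM in FaDu, and of 3 endothelial markers CDH5, at 0 to 34.6 CPM and 0 to 5.29 CPM.

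The 48 genes took a larger share of the RNA in EGF-treated sorted cells than in serum-free spheroids of either line. In Kyse30 they held 2.16% ± 0.488 of all counts in non-invasive cells and 1.28% ± 0.0597 in serum-free spheroids (SD, n = 4 each). The 4 non-invasive libraries lay in 2 levels, at 1.80% and 1.68% in replicates 1 and 3 and at 2.57% and 2.59% in replicates 2 and 4, all above the serum-free range of 1.22% to 1.36%. FaDu gave 2.78% ± 0.122 in non-invasive cells and 1.64% ± 0.0451 in serum-free spheroids. The share was 1.78% ± 0.176 in Kyse30 and 2.02% ± 0.224 in FaDu with the MEK inhibitor, and with cetuximab 1.62% ± 0.0759 and 2.05% ± 0.167. Invasive cells held 2.19% ± 0.437 in Kyse30 and 2.50% ± 0.149 in FaDu. In bulk samples such as these, fewer cells of a type and less RNA per cell cannot be told apart.

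**Figure D1:**
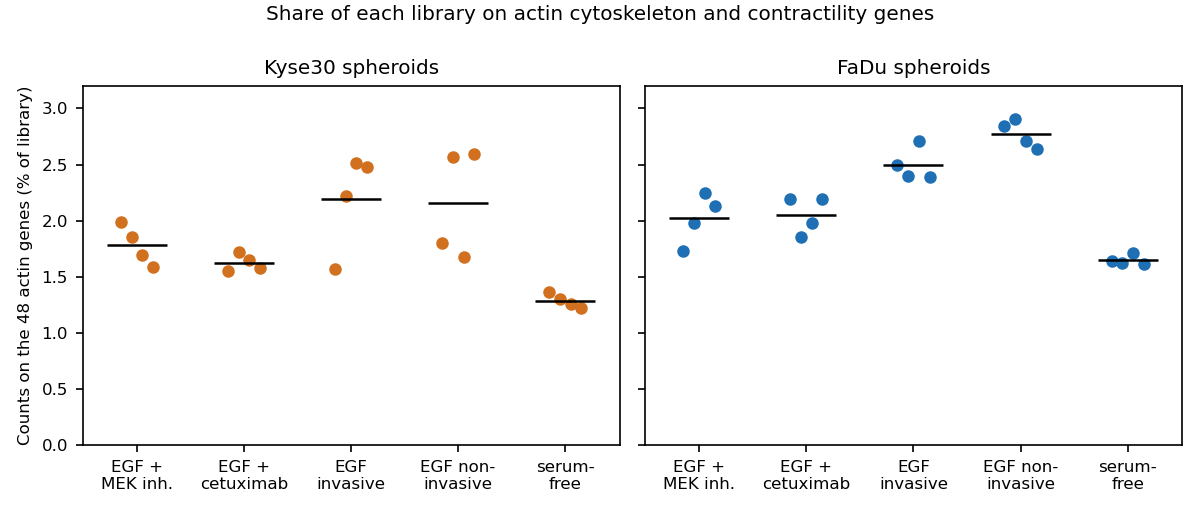
Share of each library's counts that fell on the 48 actin cytoskeleton and contractility genes (vertical axis, percent), for Kyse30 on the left and FaDu on the right; each point is a library and each bar the mean of 4. Serum-free libraries sit lowest in both lines, between 1.22% and 1.36% in Kyse30 and between 1.61% and 1.71% in FaDu.

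EGF-treated non-invasive cells were compared with serum-free spheroids, and a change with EGF below means this comparison. The non-invasive cells were sorted and the serum-free spheroids are labelled unselected, so EGF and selection cannot be told apart in it. In Kyse30, 18 of the 45 genes tested rose and 0 fell at an adjusted p under 0.05 in edgeR's quasi-likelihood test, where 8.10% of all genes tested rose and 4.76% fell. Counts of MSN, MYL9 and TPM2 were too low in Kyse30 to be tested. An unadjusted p under 0.05 was reached by 29 of the 45 members tested and by 3084 of all 11976 genes tested. DESeq2 called 18 members and limma-voom 20, and shares of all genes are not given for these fits. The median log2 fold change was 0.71 over the members and 0.03 over all genes, and each log2 fold change below is followed by its standard error (SE). Over the 17 libraries, 30 members rose and 0 fell, with 13.6% of all genes higher and 10.1% lower. In FaDu, 33 of 48 rose and 2 fell, against 25.3% and 24.7% of all genes, and the medians were 0.88 over the members and -0.02 over all genes. Mitochondrial counts also differed, at 8.22% to 19.3% in non-invasive and 19.7% to 23.8% in serum-free Kyse30 libraries, and 7.50% to 11.5% and 14.3% to 15.8% in FaDu, and their part in these results was not tested.

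Among the crosslinkers and membrane linkers, 3 of 6 tested rose with EGF in Kyse30 and 6 of 7 in FaDu, against 8.10% and 25.3% of all genes. FSCN1 encodes fascin, which packs filaments into the tight bundles of filopodia and invasive protrusions. Its level was 117, 221, 149 and 211 CPM in non-invasive Kyse30 cells, against 53.9, 49.5, 51.9 and 55.1 CPM in serum-free Kyse30. In FaDu it was 387, 437, 399.7 and 457 CPM in non-invasive cells, against 49.4, 42.9, 47.4 and 47.1 CPM in serum-free spheroids. The groups did not overlap in either line, and the lowest non-invasive FaDu library stood far above every serum-free one. The log2 fold change was 1.73 ± 0.24 in Kyse30 (SE, edgeR adjusted p = 2.59e-05) and 3.17 ± 0.14 in FaDu (adjusted p = 1.31e-15), the largest of any member in FaDu. FLNA encodes filamin A, which joins filaments into orthogonal networks and ties them to integrins. It stood at 217, 443, 312 and 348 CPM in non-invasive Kyse30 cells, against 111, 59.8, 73.9 and 83.5 CPM in serum-free Kyse30, a change of 2.01 ± 0.26 (adjusted p = 6.27e-06). All 4 non-invasive libraries were above all serum-free ones, replicate 1 the least so. FLNA also rose in FaDu, to 678 ± 84.3 CPM against 237 ± 21.4 CPM (SD, n = 4), by 1.51 ± 0.17.

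LIMA1, which encodes the filament stabiliser EPLIN that also links actin to cadherin complexes, behaved differently in the 2 lines. In Kyse30 its level was 553, 713, 629.7 and 706 CPM in non-invasive cells, against 516, 506, 526 and 568 CPM in serum-free spheroids, and its change of 0.30 ± 0.17 was not called (adjusted p = 0.291). The ranges overlapped, since the lowest non-invasive library lay below the highest serum-free one. In FaDu the values were 974, 1082, 1022 and 1040.5 CPM in non-invasive cells, against 237, 229, 223 and 247 CPM in serum-free spheroids, a rise of 2.14 ± 0.15 (adjusted p = 1.4e-11). Every non-invasive FaDu library thus stood at several times the serum-free level. The ezrin gene EZR and the moesin gene MSN encode related linkers between filaments and the plasma membrane. EZR stood at 1222, 1171, 1312 and 1235 CPM in non-invasive Kyse30 cells, against 465, 487, 423 and 454 CPM in serum-free Kyse30, and rose by 1.43 ± 0.20 (adjusted p = 3e-05). It rose by 1.27 ± 0.21 in FaDu. The Kyse30 groups were tight and far apart. MSN stood at 253, 288, 288 and 312 CPM in non-invasive FaDu cells, against 88.6, 94.8, 74.6 and 83.9 CPM in serum-free FaDu, a rise of 1.74 ± 0.14 (adjusted p = 1.63e-10). In Kyse30, MSN had 26 counts in all 20 libraries together and 0 in 14 of them. The alpha-actinin genes ACTN1 and ACTN4, whose products crosslink filaments in antiparallel arrays, were called only for ACTN1 in FaDu, at 1.43 ± 0.12. Their other changes were -0.32 ± 0.36 for ACTN1 in Kyse30, and 0.45 ± 0.24 in Kyse30 and 0.18 ± 0.18 in FaDu for ACTN4.

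**Figure D2:**
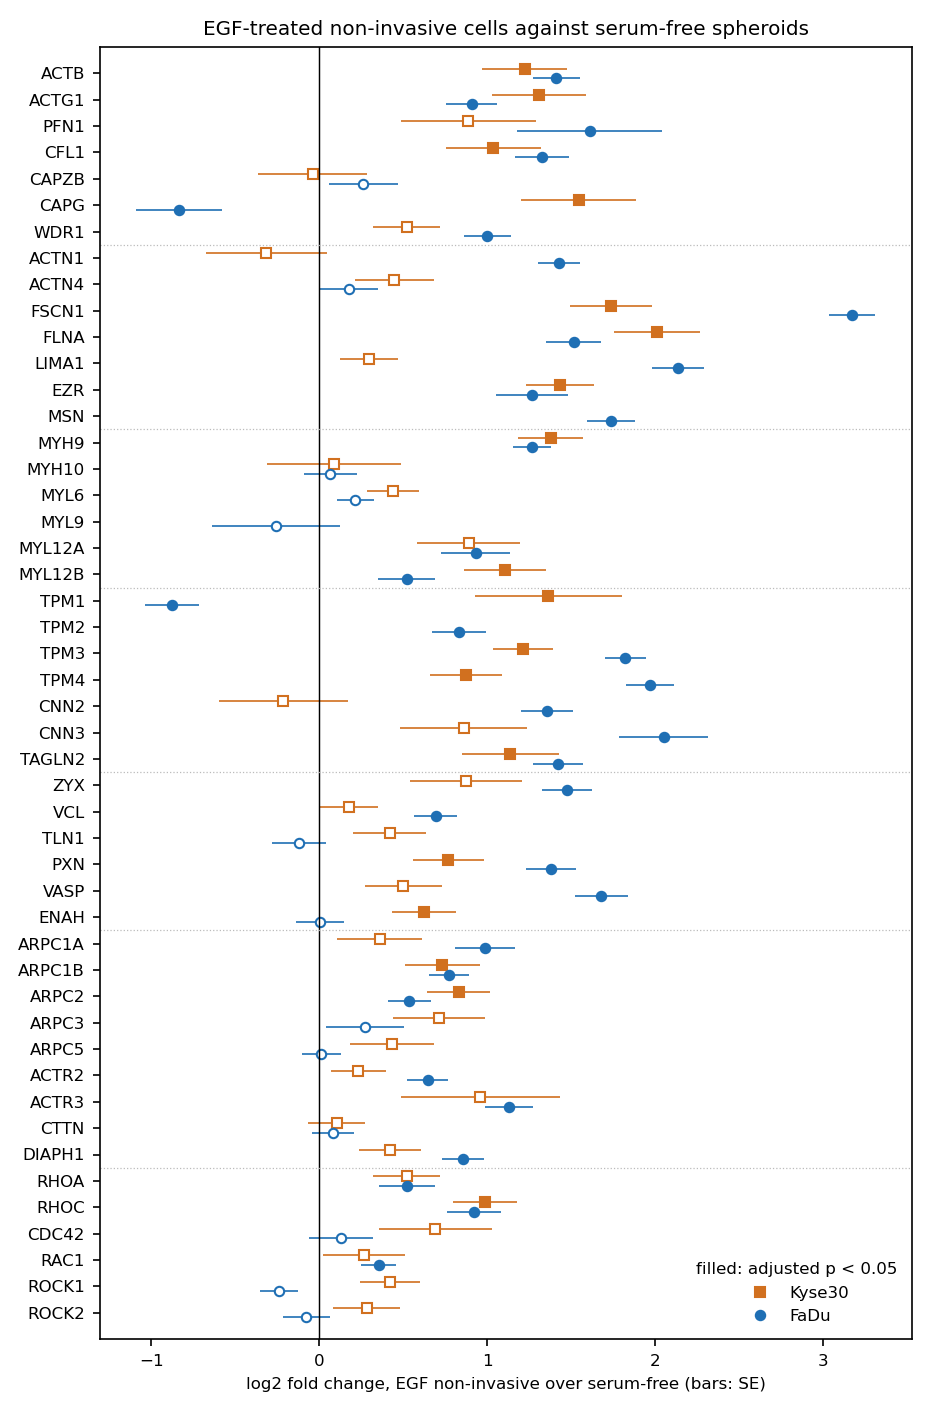
Log2 fold change of each gene in EGF-treated non-invasive cells over serum-free spheroids (horizontal axis, bars show the SE), grouped by role, with Kyse30 as squares above FaDu as circles and filled marks at an adjusted p under 0.05. Most marks lie to the right of 0, and TPM1 and CAPG lie on opposite sides in the 2 lines.

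Of the 7 genes for actin monomers and filament ends, 4 rose in Kyse30, and in FaDu 5 rose and 1 fell. Of all genes, 8.10% rose in Kyse30, and 25.3% rose and 24.7% fell in FaDu. ACTB and ACTG1 encode the beta and gamma actins of nonmuscle cells, and their coding sequences are much alike. The reads came from transcript 3′ ends, and whether any were split between these genes was not tested. ACTG1 was the most abundant member, with 4158, 6169, 4126 and 6544 CPM in non-invasive Kyse30 cells, against 2131, 2221, 2044 and 2069.9 CPM in serum-free Kyse30. ACTB had 1120.5, 1363, 1057 and 1621 CPM in non-invasive Kyse30 cells, against 597, 539, 615 and 462 CPM. Both were above the serum-free range in every non-invasive library, and both were higher in replicates 2 and 4 than in 1 and 3. They rose by 1.31 ± 0.28 for ACTG1 (adjusted p = 0.00238) and 1.22 ± 0.25 for ACTB (adjusted p = 0.00186). In FaDu, ACTB stood at 1354 ± 16.1 CPM in non-invasive cells and 509 ± 41.1 CPM in serum-free spheroids, and the rises were 1.41 ± 0.14 for ACTB and 0.91 ± 0.15 for ACTG1.

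Profilin 1, from PFN1, loads monomers onto growing ends. PFN1 stood at 438, 371, 307 and 232 CPM in non-invasive FaDu cells, against 105, 98.1, 149 and 90.2 CPM in serum-free FaDu, and rose by 1.61 ± 0.43 (adjusted p = 0.0056). The non-invasive libraries varied widely and still all lay above the serum-free ones. Its change in Kyse30, 0.89 ± 0.40, was not called. The cofilin gene CFL1, whose product severs old filaments, rose by 1.04 ± 0.28 in Kyse30 and 1.33 ± 0.16 in FaDu. WDR1, a cofilin partner, rose in FaDu by 1.00 ± 0.14 and gave 0.52 ± 0.20 in Kyse30. CAPZB, the beta subunit of capping protein, was called in neither line, at -0.04 ± 0.32 in Kyse30 and 0.26 ± 0.20 in FaDu.

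CAPG encodes a gelsolin family protein that caps filament ends without severing them. Its level was 108, 159, 103 and 136 CPM in non-invasive Kyse30 cells, against 26.7, 54.6, 32.6 and 59.3 CPM in serum-free Kyse30. In FaDu it was 15.2, 19.3, 18.1 and 20.1 CPM in non-invasive cells, against 33.5, 32.8, 28.9 and 34.3 CPM in serum-free spheroids. All non-invasive libraries lay above the serum-free ones in Kyse30 and below them in FaDu. CAPG rose by 1.54 ± 0.34 in Kyse30 (adjusted p = 0.00341) and changed by -0.83 ± 0.26 in FaDu, where it fell (adjusted p = 0.0081).

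Myosin II is the motor that makes filaments contract, and 2 of its 5 tested genes rose in Kyse30 and 3 of 6 in FaDu. These counts of few genes stand beside 8.10% and 25.3% of all genes. MYH9, the heavy chain of nonmuscle myosin IIA, stood at 466, 588, 672 and 653 CPM in non-invasive Kyse30 cells, against 205, 226, 214 and 271 CPM in serum-free Kyse30, and rose by 1.38 ± 0.19 (adjusted p = 2.64e-05). All non-invasive libraries were above all serum-free ones. MYH9 rose by 1.27 ± 0.12 in FaDu, to 1011 ± 82.6 CPM in non-invasive cells against 420.3 ± 24.0 CPM. MYH10, the heavy chain of myosin IIB, was far lower and was called in neither line, at 0.08 ± 0.40 in Kyse30 and 0.07 ± 0.16 in FaDu. Of the light chains that regulate the motor, MYL12B rose by 1.11 ± 0.24 in Kyse30 and 0.52 ± 0.17 in FaDu, and MYL12A rose by 0.93 ± 0.20 in FaDu and gave 0.89 ± 0.31 in Kyse30. These genes have near-identical coding sequences, and whether the reads from transcript 3′ ends were split between them was not tested. The essential light chain MYL6 gave 0.44 ± 0.16 in Kyse30 and 0.22 ± 0.11 in FaDu, and the regulatory light chain MYL9 gave -0.26 ± 0.38 in FaDu, none of them called.

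Tropomyosins lie along filaments and set which motors and severing proteins can bind, and calponins and transgelins stabilise filaments. In this group 4 of 6 rose in Kyse30, and in FaDu 6 rose and 1 fell. Of all genes, 8.10% rose in Kyse30, and 25.3% rose and 24.7% fell in FaDu. TPM4 stood at 928, 1076, 1005 and 1039.5 CPM in non-invasive FaDu cells, against 246, 288, 236 and 263 CPM in serum-free FaDu. TPM3 stood at 419.9, 498, 439.8 and 404 CPM, against 123, 126, 128 and 121 CPM. Neither gene had overlapping groups, and they rose by 1.97 ± 0.14 and 1.82 ± 0.12 (adjusted p = 1.41e-11 and 2.97e-12). In Kyse30 they rose by 0.87 ± 0.21 and 1.21 ± 0.18. CNN3, calponin 3, was low, with 84.7, 58.0, 61.3 and 63.6 CPM in non-invasive FaDu cells, against 16.3, 12.7, 22.7 and 13.1 CPM in serum-free FaDu, and rose by 2.05 ± 0.26 (adjusted p = 5.18e-07). CNN3 gave 0.86 ± 0.38 in Kyse30, not called.

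TPM1 went opposite ways in the 2 lines. It stood at 83.4, 132, 88.1 and 112 CPM in non-invasive Kyse30 cells, against 39.6, 33.1, 39.7 and 49.6 CPM in serum-free Kyse30, and rose by 1.36 ± 0.44 (adjusted p = 0.0399). In FaDu it stood at 149, 130.4, 144 and 137 CPM in non-invasive cells, against 255, 256, 258 and 261 CPM in serum-free spheroids, and fell, at -0.88 ± 0.16 (adjusted p = 5.31e-05). The groups did not overlap in either line. The Kyse30 call was lost when any library of either group other than non-invasive replicate 1 was left out, at 1.23 to 1.47, and with limma-voom, RLE size factors in edgeR, the replicate block or the stricter filter, and was kept over the 17 libraries at 1.61 ± 0.21 (adjusted p = 2.67e-06). TPM2 and CNN2 rose in FaDu by 0.83 ± 0.16 and 1.36 ± 0.15, CNN2 gave -0.21 ± 0.38 in Kyse30, and TAGLN2, transgelin 2, rose by 1.14 ± 0.29 in Kyse30 and 1.42 ± 0.15 in FaDu. Reads of TPM3, TPM4, CFL1, MSN and RAC1 may be shared with 7 pseudogenes in the table, which held 0.147% to 5.68% of the parent gene's counts.

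Focal adhesion genes rose in 2 of 6 cases in Kyse30 and 4 of 6 in FaDu, against 8.10% and 25.3% of all genes. VASP encodes an elongation factor at adhesions and filopodial tips. Its level was 137, 149, 138 and 161 CPM in non-invasive FaDu cells, against 37.6, 53.3, 44.8 and 46.1 CPM in serum-free FaDu, a rise of 1.68 ± 0.16 (adjusted p = 1.65e-09). In Kyse30 it was 131, 168, 108 and 134 CPM in non-invasive cells, against 103, 103, 92.3 and 84.3 CPM in serum-free spheroids, and its change of 0.50 ± 0.23 was not called. The FaDu groups were far apart, while in Kyse30 the lowest non-invasive library was close above the highest serum-free one. Paxillin, from the scaffold gene PXN, rose by 0.77 ± 0.21 in Kyse30 and 1.38 ± 0.15 in FaDu. The VASP relative ENAH rose in Kyse30 by 0.62 ± 0.19 and gave 0.00 ± 0.14 in FaDu. Its Kyse30 call was lost without non-invasive replicate 3 or 4 or serum-free replicate 1, 2 or 3, at 0.57 to 0.61 (adjusted p = 0.0722 to 0.105). Zyxin, from ZYX, and vinculin, from VCL, are mechanosensitive linkers. They rose in FaDu, by 1.47 ± 0.15 and 0.69 ± 0.13, and gave 0.88 ± 0.33 and 0.17 ± 0.17 in Kyse30. Talin 1, the integrin-binding anchor from TLN1, was called in neither line.

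The Arp2/3 complex starts branches on existing filaments, and the formin from DIAPH1 starts straight ones. In this group 2 of 9 rose in Kyse30 and 6 of 9 in FaDu, and 0 fell in either line. Of all genes, 8.10% and 25.3% rose and 4.76% and 24.7% fell. The Kyse30 calls were ARPC1B and ARPC2, at 0.73 ± 0.22 and 0.83 ± 0.19. The ARPC1B call was lost without non-invasive replicate 1, 2 or 4 or serum-free replicate 1, 3 or 4, at 0.69 to 0.73 (adjusted p = 0.0547 to 0.109). In FaDu the largest rise was that of the Arp3 subunit ACTR3, 1.13 ± 0.14, and the other 5 ranged from 0.54 for ARPC2 to 0.98 for ARPC1A. ARPC3, ARPC5 and the branch stabiliser cortactin, from CTTN, were called in neither line. RHOC, a GTPase linked to contractility and invasion, rose in both lines, by 0.99 ± 0.19 in Kyse30 and 0.92 ± 0.16 in FaDu. RHOA and RAC1 rose only slightly in FaDu, by 0.52 ± 0.17 and 0.35 ± 0.10. CDC42 and the kinase genes ROCK1 and ROCK2 were called in neither line.

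Over the 17 libraries the Kyse30 rises with EGF were 2.28 for FLNA, 2.05 for FSCN1, 1.78 for CAPG, 1.60 for ACTG1, 1.45 for MYH9, 1.44 for ACTB and 1.41 for EZR. The LIMA1 change of 0.43 ± 0.15 was then called (adjusted p = 0.0305), as were VASP at 0.67 ± 0.16 and the genes of the GTPases RHOA, CDC42 and RAC1.

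**Figure D3:**
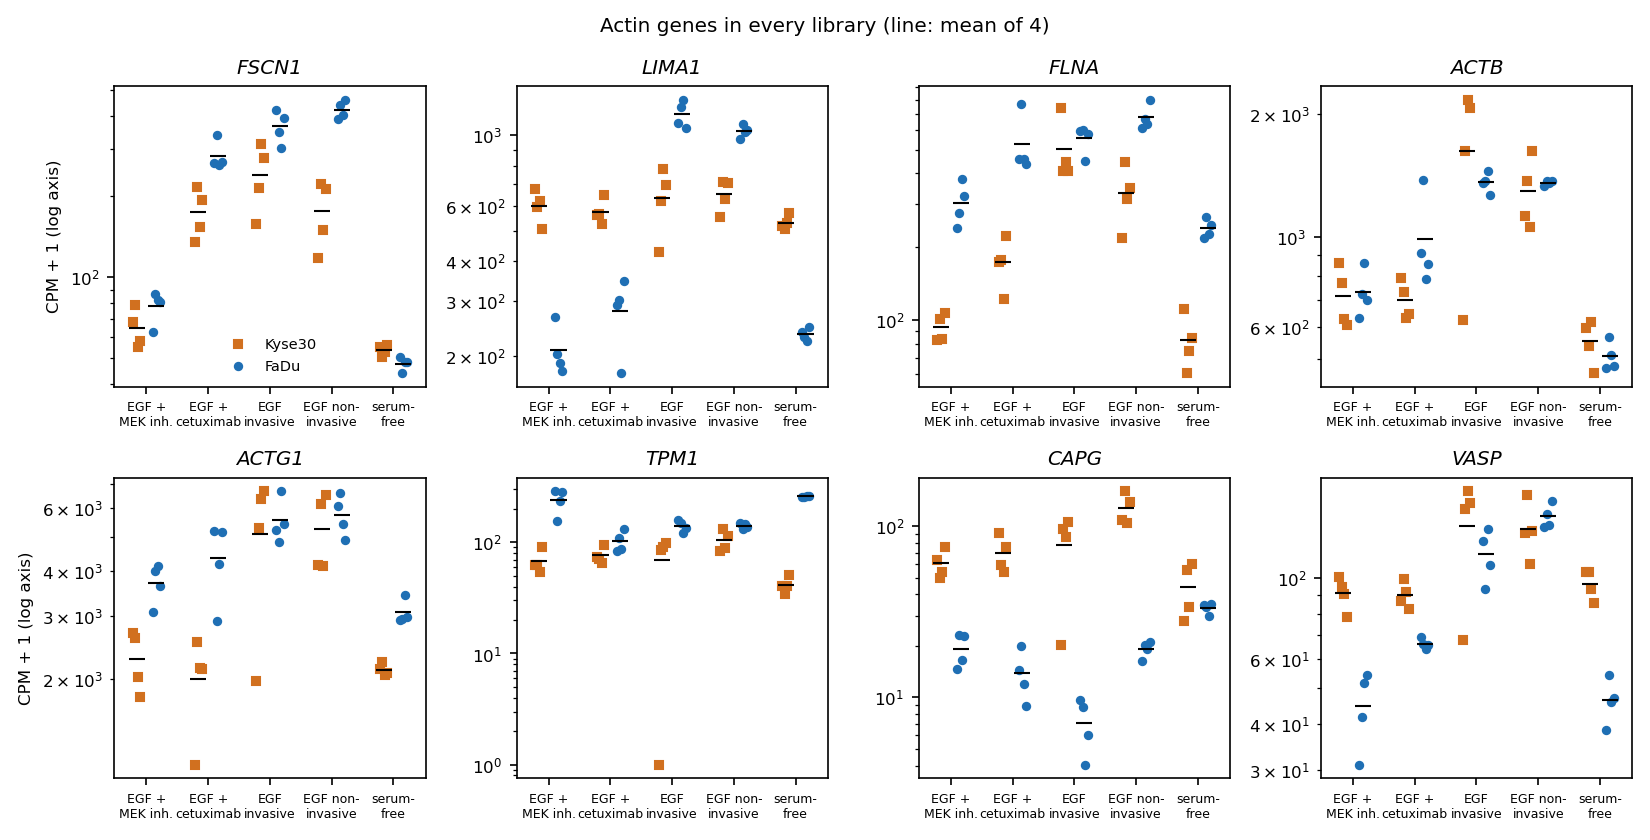
Level of FSCN1, LIMA1, FLNA, ACTB, ACTG1, TPM1, CAPG and VASP in every library (vertical log axis, CPM + 1), by group, with Kyse30 as squares left of FaDu as circles and a line at the mean of 4. With the MEK inhibitor FSCN1 lies between 54.0 and 77.7 CPM in Kyse30 and between 61.7 and 85.3 CPM in FaDu, and its serum-free libraries lie between 49.5 and 55.1 CPM in Kyse30 and between 42.9 and 49.4 CPM in FaDu.

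The difference between the lines in the EGF change was tested as the Kyse30 change minus the FaDu change in a fit of all 40 libraries. It was called for 9 of the 48 members, 3 with a larger and 6 with a smaller change in Kyse30, where 15.7% of all genes were called, so the count is close to that background. The larger changes in Kyse30 were CAPG at 2.39 ± 0.44, TPM1 at 2.25 ± 0.45 and ROCK1 at 0.67 ± 0.20 log2 units. The smaller ones were LIMA1 at -1.83 ± 0.25 (adjusted p = 7.71e-07), ACTN1 at -1.74 ± 0.41, CNN2 at -1.56 ± 0.43, FSCN1 at -1.42 ± 0.28, VASP at -1.17 ± 0.29 and TPM4 at -1.09 ± 0.27. Without the 3 Kyse30 libraries these 9 kept their direction and their call, LIMA1 at -1.72 and CAPG at 2.60.

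Promoter sequence was looked up because members rose together with EGF and because serum response factor is a known regulator of actin genes. RefSeq promoter windows on GRCh38.p14, from 250 bases before to 50 after the annotated start, were found for 42 of the 48 members, with 69 windows in all. ACTB, ARPC1B, CTTN, FSCN1, MYL9 and RAC1 had no entry. A CArG box, searched on both strands, was in the window of 6 of the 42 members (14.3%) and of 1.60% of all 27305 genes. The members were chosen as actin genes, many of them known targets of serum response factor, so the higher share cannot be separated from that choice. Whether the box had a part in the EGF changes was not tested. The 6 stretches of 30 bases that hold a CArG box are given 5′ to 3′ on the gene's strand, with the CArG box in capitals.
ACTG1 (chr17:81512874-81512903, minus strand, box from 94 bases before the start): ggaaagatcgCCATATATGGacatgttctg
FLNA (chrX:154374709-154374738, minus strand, box from 94 bases before the start): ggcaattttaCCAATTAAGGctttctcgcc
CNN2 (chr19:1026509-1026538, plus strand, box from 89 bases before the start): cgcctccaggCCTTATAAGGacatttgcgc
ROCK2 (chr2:11345491-11345520, minus strand, box from 73 bases before the start): aaatgtacttCCTTAAATGGgtttactggg
ACTN1 (chr14:68977718-68977747, minus strand, box from 171 bases before the start): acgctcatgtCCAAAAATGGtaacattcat
TPM4 (chr19:16067355-16067384, plus strand, box from 173 bases before the start): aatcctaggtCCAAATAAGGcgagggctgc
By the GENCODE annotation of GRCh38 the ACTG1 stretch lies in an annotated exon of ACTG1, those of ACTN1, ROCK2 and TPM4 lie in an intron of the same gene, that of FLNA in an exon of AC245140.3, and that of CNN2 in no annotated gene. The ACTN1, ROCK2 and TPM4 windows are 1 of 4, 2 and 3 windows of the gene. With EGF these genes changed in Kyse30 by 1.31 for ACTG1, 2.01 for FLNA, -0.21 for CNN2, 0.28 for ROCK2, -0.32 for ACTN1 and 0.87 for TPM4, and in FaDu by 0.91, 1.51, 1.36, -0.08, 1.43 and 1.97 in the same order. The AP-1 motif TGANTCA was in the windows of 5 members (11.9%, against 9.37% of all genes) and the TEAD motif GGAATG in those of 10 (23.8%, against 16.7%), both strands counted. Members had 69 windows for 42 genes, and all genes 35093 windows for 27305, which affects shares per gene. Per window, TEAD was in 14.5% of member windows and 14% of all windows, so the shares were close. AP-1 was in 8.7% and 7.71%, and the CArG box in 8.7% and 1.29%. A match is a description of these letters and not of binding.

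Invasive and non-invasive cells of the same EGF treatment were compared to ask whether cells that leave the spheroid differ in these genes. In Kyse30, 0 of 45 members were called by edgeR, where 0.0668% of all genes were higher and 0.342% lower in invasive cells. At an unadjusted p under 0.05 were 3 of the 45 members and 1549 of all 11976 genes tested. DESeq2 called 1 member and limma-voom 0. PXN, picked after its values were seen, had the lowest p, with 335, 261, 295 and 247 CPM in invasive and 139, 191, 158 and 190.5 CPM in non-invasive cells, and all 4 invasive libraries above all non-invasive ones, at 0.74 ± 0.21 (adjusted p = 0.119). The highest of these is the shallow replicate 1, and over the 17 libraries PXN gave 0.48 ± 0.21 (adjusted p = 0.412). Over the 17 libraries ACTN1 was called, at 0.87 ± 0.19 (adjusted p = 0.0331), with 0.165% of all genes higher and 0.461% lower. Its levels were 36.5, 347, 527 and 410.2 CPM in invasive cells, against 213, 229, 229 and 239 CPM in non-invasive cells. The low value is the shallow replicate 1, and the other 3 invasive libraries exceeded every non-invasive one. The median over all genes was -0.15 in the 20-library fit, so changes near that value are close to the centre of all genes.

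In FaDu 2 of 48 members were lower in invasive cells and 0 were higher, where 2.34% of all genes were lower and 0.659% higher. CAPG stood at 8.62, 7.74, 3.06 and 5.02 CPM in invasive cells, against 15.2, 19.3, 18.1 and 20.1 CPM in non-invasive cells, and fell, at -1.56 ± 0.28 (edgeR adjusted p = 0.00167). TAGLN2 stood at 957, 966, 693 and 885 CPM in invasive cells, against 1216, 1253, 1201 and 1496 CPM in non-invasive cells, and fell, at -0.56 ± 0.15 (adjusted p = 0.0321). Neither gene had overlapping groups. The TAGLN2 call was lost without any of the 4 non-invasive libraries or without invasive replicate 3 or 4, at -0.47 to -0.58 (adjusted p = 0.0543 to 0.137). FSCN1, also picked after its values were seen, stood at 419, 347, 303 and 389 CPM in invasive cells, against 387, 437, 399.7 and 457 CPM in non-invasive cells of FaDu. These ranges overlapped and the change was -0.21 ± 0.12 (adjusted p = 0.437). In Kyse30 FSCN1 gave 0.47 ± 0.24 (adjusted p = 0.413). The median of all 48 members was -0.12 in FaDu and that of the 45 tested was 0.05 in Kyse30. The difference between the lines was called for 0 members in edgeR, where 0.182% of all genes were called, and for 0 in DESeq2 and limma-voom. At an unadjusted p under 0.05 in edgeR were 7 of the 48 members and 1191 of all 12652 genes tested. Leaving out Kyse30 invasive replicate 1 or non-invasive replicate 1 gave 1 call.

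Cetuximab and the MEK inhibitor were set against EGF-treated non-invasive cells. Samples given either agent are labelled unselected and the non-invasive cells were sorted, so agent and selection cannot be told apart in these comparisons. With the MEK inhibitor 5 of 45 members fell and 0 rose in Kyse30, against 2.91% and 1.65% of all genes. Over the 17 libraries 15 fell and 0 rose, against 5.84% and 3.94%. In FaDu 29 of 48 fell and 2 rose, against 14.9% and 14.8% of all genes. With cetuximab 10 of 45 fell and 0 rose in Kyse30, against 3.08% and 1.85%, and over the 17 libraries 25 fell and 1 rose, against 5.94% and 3.80%. In FaDu 20 of 48 fell with cetuximab and 0 rose, against 4.93% and 3.64%. In Kyse30, 18 members with the MEK inhibitor and 24 with cetuximab had an unadjusted p under 0.05, against 1967 and 2234 of 11976 genes. In FaDu, 33 and 31 members did, against 4900 and 2698 of 12131 genes. DESeq2 called 7 and 13 members in Kyse30 and 31 and 22 in FaDu. Limma-voom called 11 and 17 in Kyse30 and 31 and 24 in FaDu. Shares of all genes are not given for these alternative fits. The member medians were -0.39 with the MEK inhibitor and -0.51 with cetuximab in Kyse30, and -0.58 and -0.46 in FaDu, while the medians of all genes lay between -0.03 and 0.05. When library totals replaced TMM factors the median of all genes in Kyse30 shifted to 0.28 with the MEK inhibitor and 0.22 with cetuximab, and 3 members fell and 1 rose with the MEK inhibitor and 1 fell with cetuximab. Without cetuximab replicate 1, 3 or 4 or non-invasive replicate 1, 2 or 4, the Kyse30 cetuximab count was 2 to 4, and among the 10 genes ACTG1 alone kept its call whichever library of these groups was left out.

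FSCN1 was lower with the MEK inhibitor in both lines. It stood at 67.1, 77.7, 54.0 and 56.8 CPM with the MEK inhibitor and 134, 216, 152 and 193 CPM with cetuximab in Kyse30, against 175 ± 50 CPM in non-invasive cells (SD, n = 4). In FaDu it stood at 61.7, 85.3, 81.0 and 80.0 CPM with the MEK inhibitor and 266, 337, 260.1 and 268 CPM with cetuximab, against 420.2 ± 32.7 CPM in non-invasive cells. Every MEK inhibitor library lay below every non-invasive and every cetuximab library of its line. The MEK inhibitor changes were -1.45 ± 0.24 in Kyse30 (edgeR adjusted p = 0.000412) and -2.44 ± 0.13 in FaDu (adjusted p = 1.94e-13). Cetuximab gave -0.01 ± 0.23 in Kyse30, not called, and -0.57 ± 0.12 in FaDu (adjusted p = 0.00304). Set directly against cetuximab, FSCN1 was lower with the MEK inhibitor, at -1.44 ± 0.24 in Kyse30 (adjusted p = 0.00148) and -1.87 ± 0.13 in FaDu (adjusted p = 2.06e-10).

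FLNA stood at 82.1, 101, 83.1 and 107 CPM with the MEK inhibitor and 173, 176, 121 and 221 CPM with cetuximab in Kyse30, against 217, 443, 312 and 348 CPM in non-invasive cells. The MEK inhibitor libraries lay within the serum-free range, and the cetuximab libraries lay above it, with replicate 4 just reaching the lowest non-invasive library. The changes were -1.83 ± 0.25 with the MEK inhibitor (adjusted p = 4.35e-05) and -0.94 ± 0.25 with cetuximab (adjusted p = 0.025). The cetuximab call was lost without cetuximab replicate 1, 2 or 3 or non-invasive replicate 2 or 4, at -0.76 to -0.94. In FaDu the MEK inhibitor gave -1.16 ± 0.16, called, and cetuximab -0.36 ± 0.16, not called, with cetuximab replicate 2 at 767 CPM and the other 3 between 435 and 456 CPM. LIMA1 fell with both agents in FaDu alone, to 265, 203, 189 and 178 CPM with the MEK inhibitor and 289, 302, 176 and 345 CPM with cetuximab, against 974, 1082, 1022 and 1040.5 CPM in non-invasive cells. Both sets overlapped the range of serum-free FaDu, at -2.30 ± 0.16 (adjusted p = 1.22e-11) and -1.89 ± 0.15 (adjusted p = 5.65e-09). In Kyse30 the levels were 598 ± 70.1 CPM, 573 ± 53.4 CPM and 650.4 ± 75.3 CPM in the same order. The difference between the lines was called for LIMA1 with both agents, at 2.20 ± 0.25 with the MEK inhibitor (adjusted p = 6.69e-08) and 1.75 ± 0.24 with cetuximab (adjusted p = 1.67e-05).

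Membrane linkers and crosslinkers other than these also fell. EZR stood at 837, 679, 608 and 523 CPM in Kyse30 with the MEK inhibitor, against 1235 ± 58.2 CPM in non-invasive cells, and fell, at -0.90 ± 0.20 (adjusted p = 0.00825), and with cetuximab at -0.77 ± 0.20. The cetuximab call was lost without cetuximab replicate 2, 3 or 4 or non-invasive replicate 1, 3 or 4, at -0.65 to -0.77 (adjusted p = 0.0546 to 0.111). ACTN4 stood at 462, 743, 727 and 639 CPM with cetuximab in Kyse30, against 1359, 1173, 1216 and 1269 CPM in non-invasive cells, and fell, at -0.96 ± 0.24 (adjusted p = 0.0167). No cetuximab library reached the non-invasive range, and the call was lost without cetuximab replicate 1, at -0.83 (adjusted p = 0.116), and without cetuximab replicate 4 or non-invasive replicate 1 or 4. In FaDu, MSN, ACTN1 and ACTN4 fell with both agents, MSN at -0.79 with the MEK inhibitor and -0.96 with cetuximab. ACTN4 lost its call with the MEK inhibitor without MEK inhibitor or non-invasive replicate 1 or 2, at -0.47 to -0.51. It lost that with cetuximab without cetuximab replicate 2 or 3 or non-invasive replicate 1, 2 or 3, at -0.41 to -0.63. ACTN1 lost its cetuximab call without cetuximab replicate 3 or non-invasive replicate 2 or 4, at -0.40 to -0.41.

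The actin genes themselves fell with both agents in part. ACTG1 stood at 2681, 2605, 2027 and 1781 CPM with the MEK inhibitor and 1149, 2541, 2146 and 2128 CPM with cetuximab in Kyse30, against 4158, 6169, 4126 and 6544 CPM in non-invasive cells. All 8 treated libraries lay below all 4 non-invasive ones, and the changes were -1.21 ± 0.28 (adjusted p = 0.0104) and -1.40 ± 0.28 (adjusted p = 0.00339). The MEK inhibitor call was lost without non-invasive replicate 4 or MEK inhibitor replicate 3 or 4, at -1.07 to -1.15. ACTB was called lower with cetuximab in Kyse30, and lost that call in 7 of the 8 fits that left out a library, at -0.75 to -0.95. It was not called with the MEK inhibitor, and CAPG was called with neither agent. Over the 17 libraries both fell with both agents, ACTB at -1.06 with the MEK inhibitor and -1.10 with cetuximab, and CAPG at -1.30 and -1.11. In FaDu, ACTB fell with both, at -0.89 ± 0.14 with the MEK inhibitor and -0.46 ± 0.14 with cetuximab, while ACTG1 fell with the MEK inhibitor, at -0.63 ± 0.15, and gave -0.40 ± 0.15 with cetuximab. The FaDu call of ACTB with cetuximab was lost without cetuximab replicate 1, 3 or 4 or non-invasive replicate 2, 3 or 4, at -0.39 to -0.48 (adjusted p = 0.0511 to 0.111). WDR1 fell with both in FaDu and CFL1 with the MEK inhibitor. PFN1 was called with neither agent in either line. Its cetuximab libraries varied, at 12.7, 185, 132 and 126 CPM in Kyse30 and 284, 41.9, 197 and 301 CPM in FaDu, where replicate 1 of Kyse30 and replicate 2 of FaDu were far below the rest.

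In the myosin group MYH9 fell with both agents in both lines. It stood at 351, 319, 270.5 and 296 CPM in Kyse30 with the MEK inhibitor, against 595 ± 92.7 CPM in non-invasive cells, and fell, at -0.94 ± 0.19 (adjusted p = 0.00346). Its other changes were -0.77 ± 0.19 with cetuximab in Kyse30, and -0.85 ± 0.11 with the MEK inhibitor and -0.73 ± 0.11 with cetuximab in FaDu. MYL12A stood at 115, 317, 242 and 225 CPM with cetuximab in Kyse30, against 476, 585, 374 and 549.8 CPM in non-invasive cells, and fell, at -1.14 ± 0.31 (adjusted p = 0.029). Replicate 1 was the lowest, and without it the change was -0.92 (adjusted p = 0.154). The call was also lost without cetuximab replicate 3 or 4 or non-invasive replicate 1, 2 or 4. MYL9 stood at 8.49, 14.2, 8.84 and 19.6 CPM with cetuximab in FaDu, against 48.4, 25.4, 29.6 and 29.5 CPM in non-invasive cells, and fell, at -1.37 ± 0.40 (adjusted p = 0.0364). These groups did not overlap, and the call was lost in 6 of the 8 fits that left out a library of either group, at -1.15 to -1.45. With the MEK inhibitor MYL9 stood at 40.9, 12.9, 37.4 and 57.9 CPM in FaDu, which spans the non-invasive range, and it was higher than with cetuximab by 1.54 ± 0.40 (adjusted p = 0.00958).

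The tropomyosins split. In FaDu, TPM4 stood at 481, 404, 429 and 373 CPM with the MEK inhibitor and 577, 709.8, 410.1 and 503 CPM with cetuximab, against 928, 1076, 1005 and 1039.5 CPM in non-invasive cells. It fell, at -1.26 ± 0.14 (adjusted p = 8.41e-08) and -0.88 ± 0.14 (adjusted p = 8.23e-05), and TPM3 did likewise at -1.15 ± 0.12 and -0.63 ± 0.12. TPM1 rose with the MEK inhibitor, to 287, 153, 233 and 284 CPM in FaDu, against 149, 130.4, 144 and 137 CPM in non-invasive cells, by 0.77 ± 0.16 (adjusted p = 0.000558). All 4 MEK inhibitor libraries lay above the non-invasive ones, replicate 2 only just. With cetuximab TPM1 gave -0.46 ± 0.16, not called, so the agents differed by 1.23 ± 0.16 (adjusted p = 4.08e-06). The calponin and transgelin genes CNN2, CNN3 and TAGLN2 fell with the MEK inhibitor in FaDu, at -1.17 ± 0.15, -0.89 ± 0.25 and -0.94 ± 0.15, and were not called with cetuximab. In Kyse30 the called change of this group over all 20 libraries was TPM3 with cetuximab, at -0.69 ± 0.18, and it was lost without cetuximab replicate 1, 3 or 4 or non-invasive replicate 2 or 4, at -0.60 to -0.72. TPM1, TPM3 and TPM4 fell with the MEK inhibitor over the 17 libraries, at -0.87 ± 0.21, -0.70 ± 0.16 and -0.84 ± 0.17 (adjusted p = 0.00669, 0.00401 and 0.00118). With cetuximab they fell at -0.71, -0.86 and -0.82, CNN3 fell at -1.30 ± 0.35 (adjusted p = 0.0188) and CNN2 rose by 0.66 ± 0.21 (adjusted p = 0.0446).

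At focal adhesions, VASP stood at 30.0, 40.8, 50.6 and 53.4 CPM with the MEK inhibitor and 68.2, 64.9, 62.9 and 64.8 CPM with cetuximab in FaDu, against 137, 149, 138 and 161 CPM in non-invasive cells. It fell with both agents and further with the MEK inhibitor, at -1.73 ± 0.16 (adjusted p = 2.71e-09) and -1.17 ± 0.15 (adjusted p = 9.02e-06). The agents differed by -0.57 ± 0.16 (adjusted p = 0.0106). PXN stood at 83.2, 113, 102 and 132 CPM with the MEK inhibitor in FaDu, against 265, 259, 233 and 242 CPM in non-invasive cells, and fell, at -1.21 ± 0.15 (adjusted p = 4.71e-07). ZYX stood at 105, 66.2, 66.7 and 72.2 CPM with cetuximab in FaDu, against 149.9, 152, 142 and 161 CPM in non-invasive cells, and fell, at -0.97 ± 0.15 (adjusted p = 5.56e-05). None of these FaDu groups overlapped. ENAH rose with the MEK inhibitor in FaDu, by 0.89 ± 0.14. In Kyse30 the 6 genes ranged from -0.59 to 0.05 with the MEK inhibitor and from -0.60 to 0.13 with cetuximab. None passed the test in edgeR, and 3 and 1 had an unadjusted p under 0.05, against 1967 and 2234 of 11976 genes.

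Among the nucleators, ARPC3 stood at 45.4, 159, 147 and 113 CPM with cetuximab in Kyse30, against 241, 220.3, 188 and 241 CPM in non-invasive cells, and fell, at -0.94 ± 0.27 (adjusted p = 0.0429). Replicate 1 was again the lowest, and without it the change was -0.67 (adjusted p = 0.145). Leaving out any other library of the 2 groups but cetuximab replicate 2 also ended the call. In FaDu 6 of 9 nucleators fell with the MEK inhibitor and 3 with cetuximab, and of these ARPC1B and ACTR3 fell with both. Of all genes, 14.9% and 4.93% fell with these agents in FaDu. RHOC stood at 122, 151, 98.6 and 142 CPM with cetuximab in FaDu, against 228, 269.5, 279 and 306 CPM in non-invasive cells, and fell, at -1.08 ± 0.16 (adjusted p = 4.18e-05). It also fell with the MEK inhibitor, at -1.02 ± 0.16, and was the lone GTPase or kinase gene called with either agent in FaDu. In Kyse30 the 6 GTPase and kinase genes ranged from -0.61 to 0.17 with the MEK inhibitor and from -0.61 to 0.23 with cetuximab. None passed the test in edgeR, and 1 and 2 had an unadjusted p under 0.05, against 1967 and 2234 of 11976 genes.

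**Figure D4:**
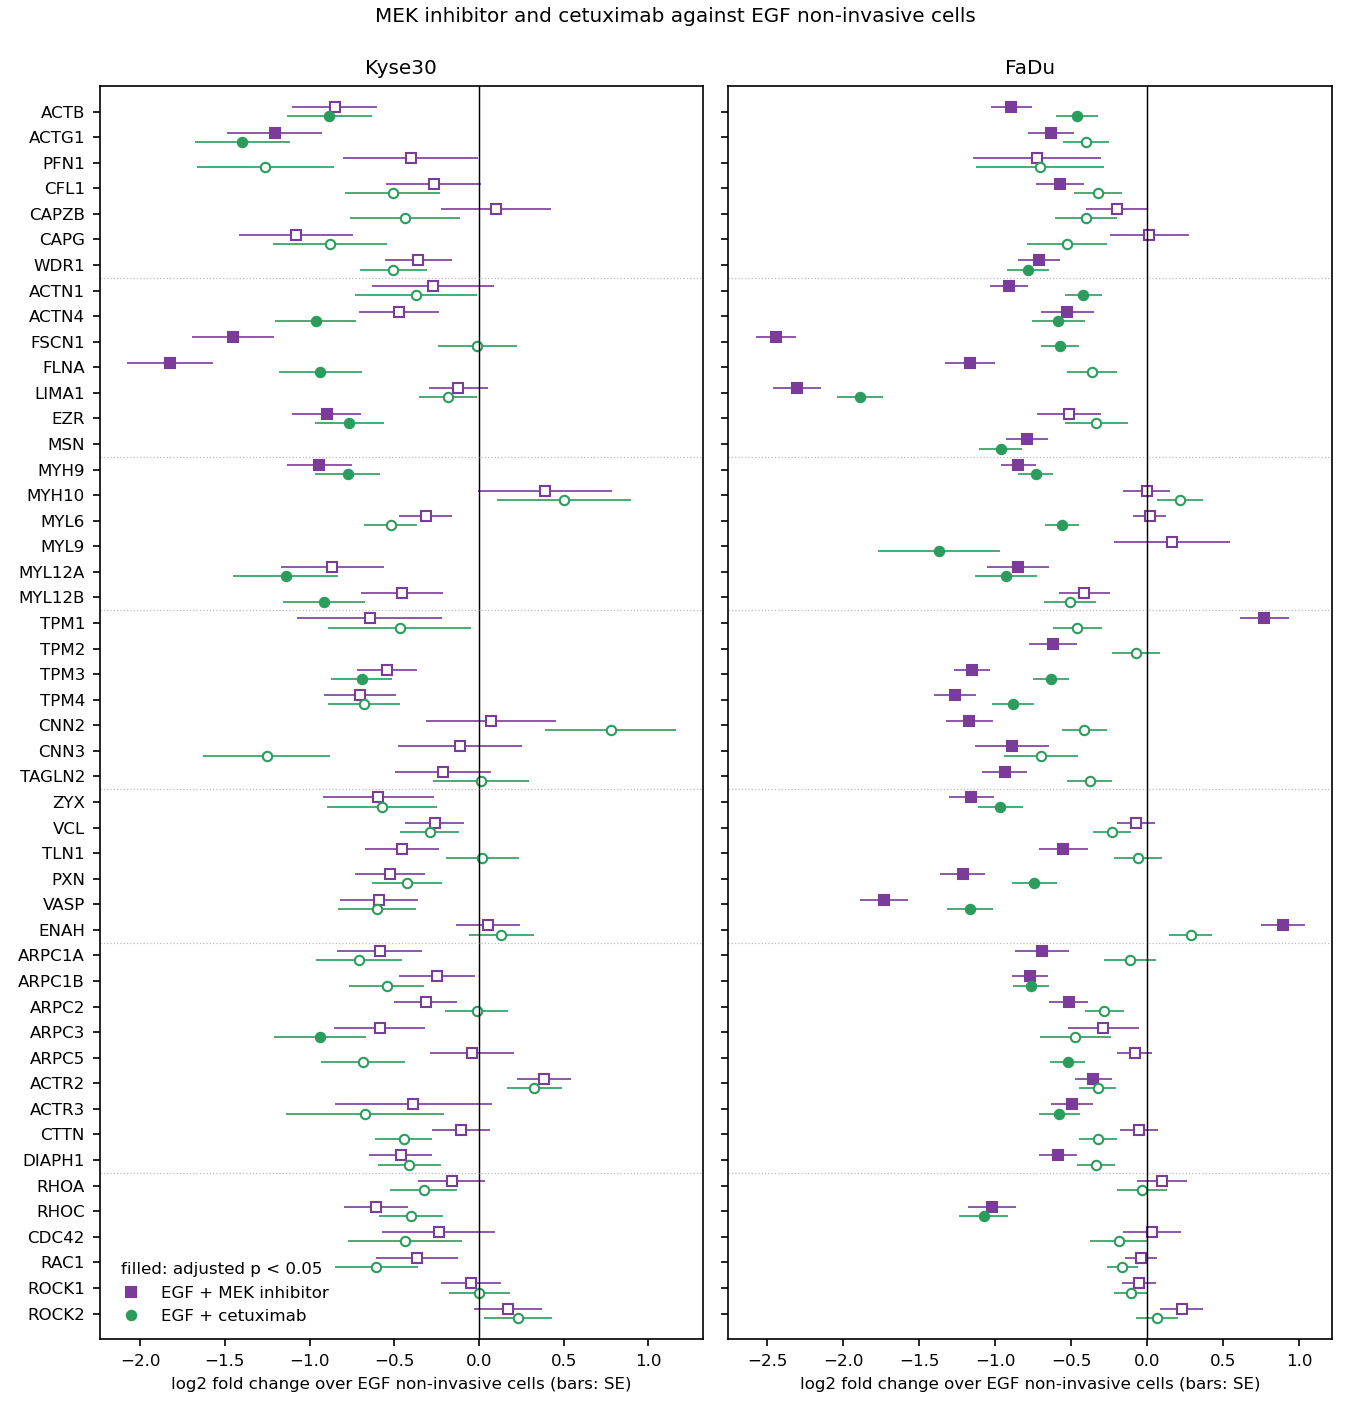
Log2 fold change of each gene with the MEK inhibitor (squares, upper mark) and with cetuximab (circles, lower mark) over EGF-treated non-invasive cells (horizontal axis, bars show the SE), Kyse30 on the left and FaDu on the right, with filled marks at an adjusted p under 0.05. FSCN1 lies far to the left with the MEK inhibitor in both lines and LIMA1 with both agents in FaDu, while TPM1 and ENAH lie to the right in FaDu with the MEK inhibitor.

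Over the 17 libraries the Kyse30 changes with the MEK inhibitor were -2.08 for FLNA, -1.76 for FSCN1, -1.48 for ACTG1, -1.0 for MYH9 and -0.86 for EZR. With cetuximab they were -1.68 for ACTG1, -1.35 for MYL12A, -1.20 for FLNA, -1.0 for ARPC3 and -0.93 for ACTN4. FSCN1 and LIMA1 with cetuximab were still not called, at -0.33 ± 0.19 and -0.32 ± 0.15. Among the genes called over the 17 libraries and not over all 20 were PXN, VASP, RHOC and RAC1, lower with both agents, with VASP at -0.74 with the MEK inhibitor and -0.77 with cetuximab. The Arp2/3 genes ARPC1A, ARPC1B, ARPC5 and ACTR3 were likewise called lower with cetuximab, at -0.57 to -0.86. Tests of the difference between the lines called 5 members with the MEK inhibitor, where 5.10% of all genes were called. They were LIMA1, VASP at 1.16 ± 0.29, FSCN1 at 1.00 ± 0.28, ACTR2 at 0.75 ± 0.21 and ENAH at -0.82 ± 0.25. Leaving out 1 library ended the FSCN1 call in 4 cases, at 0.86 to 0.96, the ACTR2 call in 5, at 0.66 to 0.70, and the ENAH call in 13, at -0.65 to -0.86. Without the 3 Kyse30 libraries FSCN1 gave 0.71 (adjusted p = 0.044) and ACTR2 0.54 (adjusted p = 0.0632). With cetuximab LIMA1 alone was called, where 1.31% of all genes were.

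Levels under each agent were also set against serum-free spheroids. With the MEK inhibitor 3 of 45 members were higher and 0 lower in Kyse30, against 2.29% and 1.61% of all genes, namely TPM3, ENAH and ACTR2, at 0.67 ± 0.18, 0.68 ± 0.19 and 0.62 ± 0.16. Without MEK inhibitor replicate 1, 2 or 3, or serum-free replicate 2, 3 or 4, edgeR called 0, with 6 to 10 at an unadjusted p under 0.05. In the 17 libraries 15 were higher and 1 lower, against 9.75% and 7.82% of all genes. In FaDu 16 were higher and 2 lower than in serum-free spheroids, against 10.8% and 8.63%, the lower ones being CAPG and TLN1 at -0.82 ± 0.26 and -0.68 ± 0.16. The CAPG call was lost without MEK inhibitor replicate 1 or 3 or serum-free replicate 1, 2 or 4, at -0.69 to -0.81 (adjusted p = 0.053 to 0.082). FSCN1 was still higher by 0.73 ± 0.13 in FaDu. With cetuximab 5 of 45 were higher and 0 lower in Kyse30, against 1.88% and 1.25%, namely FSCN1, FLNA, TAGLN2, ENAH and ARPC2, with FSCN1 at 1.72 ± 0.24 (adjusted p = 0.000312), the one of these calls kept without any 1 library. In the 17-library fit 17 were higher and 2 lower, against 9.96% and 7.54%. In FaDu 24 were higher and 6 lower, against 22.7% and 21.1%, with FSCN1 at 2.60 ± 0.14 and TPM1 and MYL9 lower at -1.34 ± 0.16 and -1.63 ± 0.40. LIMA1 was not called against serum-free FaDu with either agent, at -0.17 ± 0.15 with the MEK inhibitor and 0.25 ± 0.15 with cetuximab. Between the agents 1 of 45 members, FSCN1, was called in Kyse30, lower with the MEK inhibitor, against 0.585% of all genes lower and 0.593% higher. With 17 libraries 3 were lower and 3 higher, against 2.86% and 3.10%. In FaDu 12 were lower and 5 higher with the MEK inhibitor than with cetuximab, against 11.2% and 8.54%. The higher ones were MYL9, TPM1, ENAH, MYL6 and ARPC5, and the lower ones included FLNA at -0.80 ± 0.16 and CNN2 at -0.76 ± 0.15. The shared groups tie these comparisons to one another, so none is independent support for another.

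The lines differed in their starting levels. In serum-free spheroids 12 of 48 members were higher and 14 lower in Kyse30 than in FaDu, against 21.5% and 22.0% of all genes, so that the counts are close to that background. MSN and MYL9 had 0 counts in all 4 serum-free Kyse30 libraries, against 88.5, 94.6, 74.5 and 83.7 CPM for MSN and 37.9, 34.0, 47.6 and 39.2 CPM for MYL9 in FaDu. With a floor of 3 counts over the 4 libraries, MSN was at least 309-fold and MYL9 at least 144-fold lower in Kyse30. TPM2 had 1.10, 0.630, 2.72 and 1.67 CPM in Kyse30, against 60.3, 60.9, 57.5 and 70.2 CPM in FaDu, at 16 counts in the 4 Kyse30 libraries together. Over all 20 Kyse30 libraries MYL9 had 1 count and TPM2 had 78. These low counts left no test of a treatment effect for the 3 genes in Kyse30.

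TPM1 stood at 39.6, 32.5, 39.2 and 48.8 CPM in serum-free Kyse30, against 255, 255, 258 and 260.1 CPM in FaDu, a difference of -2.68 ± 0.33 (edgeR adjusted p = 1.25e-08). TAGLN2 stood at 90.2, 66.2, 60.2 and 113 CPM in Kyse30, against 487, 511, 454 and 473 CPM in FaDu, at -2.55 ± 0.25 (adjusted p = 4.96e-11). Neither gene had overlapping lines. FLNA and ZYX were lower in Kyse30, at -1.55 ± 0.22 and -1.14 ± 0.25, as was ROCK1, a kinase that activates myosin II, at -0.99 ± 0.14. MYH9 and MYL6 were lower as well, at -0.89 ± 0.15 and -0.77 ± 0.14. LIMA1 was higher in Kyse30, with 517, 496, 520.2 and 559.9 CPM, against 237, 229, 223 and 247 CPM in FaDu, by 1.16 ± 0.17 (adjusted p = 6.17e-07). VASP, ARPC1A, EZR and TPM4 were higher by 1.06, 0.98, 0.92 and 0.87. The difference for FSCN1, 0.16 ± 0.20, was not called.

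**Figure D5:**
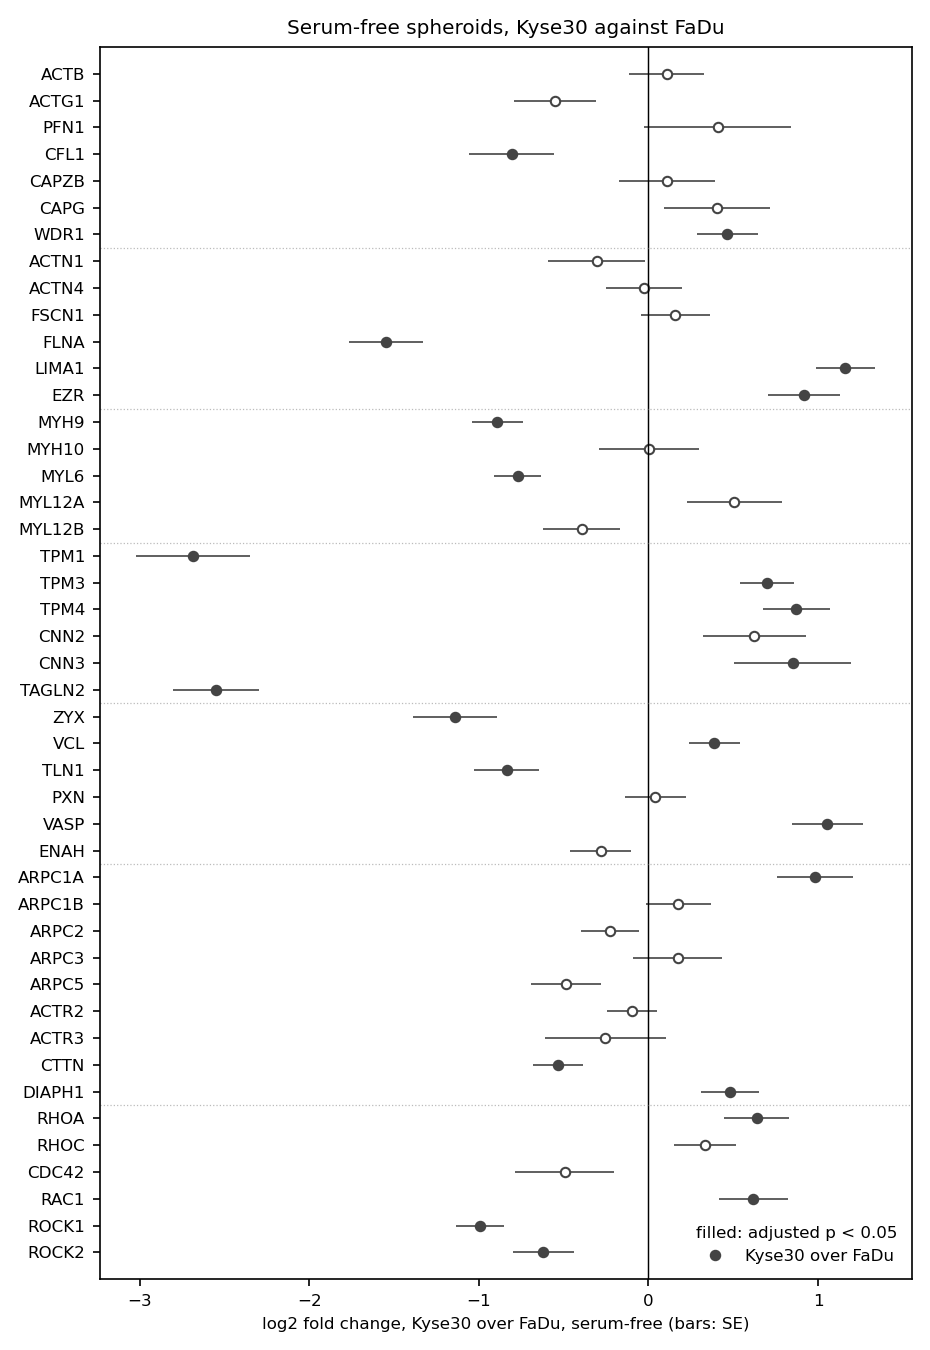
Log2 fold change of Kyse30 over FaDu in serum-free spheroids for the 45 members tested in both lines (horizontal axis, bars show the SE), grouped by role, with filled marks at an adjusted p under 0.05. TPM1 at -2.68 and TAGLN2 at -2.55 lie farthest to the left and LIMA1 at 1.16 farthest to the right.

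A list of 84 other genes of actin regulation, of which 80 were in the table, was counted beside the members. With EGF 23 of the 77 tested in Kyse30 rose and 0 fell, where 8.10% of all genes rose and 4.76% fell. In FaDu 35 of 80 rose and 14 fell, against 25.3% and 24.7% of all genes, and the list's medians were 0.53 in Kyse30 and 0.39 in FaDu. Those that rose in both lines included TMSB10, a monomer-binding thymosin, at 2.67 in Kyse30 and 2.85 in FaDu, ANLN, the anillin of the cleavage furrow, at 2.20 and 3.63, and PDLIM7 at 3.02 and 2.40. PALLD, the crosslinker palladin, rose by 2.24 in Kyse30 and changed by -1.06 in FaDu, and the difference between the lines was 3.32 (edgeR adjusted p = 4.07e-08). GSN, gelsolin, likewise gave 1.17 and -1.10, with a difference of 2.28 (adjusted p = 1.96e-06). In invasive cells 1 of 80 fell in FaDu, where 2.34% of all genes did, the GTPase gene RHOV at -1.04 (adjusted p = 0.0224). Under the MEK inhibitor 9 of 77 fell and 1 rose in Kyse30, against 2.91% and 1.65% of all genes, and 33 of 80 fell and 9 rose in FaDu, against 14.9% and 14.8%. With cetuximab 9 of 77 fell in Kyse30, against 3.08% of all genes, and 22 of 80 in FaDu, against 4.93%, and 0 rose in either line, against 1.85% and 3.64%. Named genes of this list were chosen after their values were seen.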

How the data were processed

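RNA of 40 libraries was read from the transcripts' 3′ ends with the Lexogen QuantSeq kit, per the labels' protocols. The authors deposited whole-number read counts per gene. STAR, HTSeq and GRCh38 are named in the submitters' processing notes, while their versions and settings, the gene annotation and the strand are not stated in anything read for this work. A 3′ tag count does not grow with transcript length, so that length does not set the levels of different genes apart. Reads shared between similar genes or with pseudogenes can still affect levels set beside one another between genes, which was not tested. Without a stated strand, overlapping and antisense genes cannot be told apart.

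Counts were analysed with edgeR 4.0.16 under R 4.3.3 (TMM factors, filter by group, robust quasi-likelihood fit), with all 20 libraries of a line in its fit. All 40 libraries entered the fit for differences between the lines. Benjamini-Hochberg adjustment ran over all genes of a fit, and genes with an adjusted p under 0.05 are called. CPM is a gene's count scaled to the TMM-adjusted library size. DESeq2 1.42.0, limma-voom (limma 3.58.1) and other scalings, filters and subsets were alternatives, and the procedure was tested on simulated data. The members and lists were chosen with earlier results of these data known. Values in every library are given for members called in non-invasive cells over serum-free spheroids with a log2 fold change of at least 1 in size, up to the 8 largest in a line. They are also given for all called between invasive and non-invasive cells, and for up to the 5 largest called with each agent in a line. Nothing in the labels makes the replicates separate cultures, and p-values may therefore reflect technical spread alone. A result of the wider list of actin regulation genes in Kyse30 invasive cells is not reported here.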

Additional observations from a re-analysis of the deposited data

Results flagged for a closer look

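Of 125 groups of 4 libraries examined for the 23 members with values in every library, 7 held a library set apart from the other 3, and chance flags about 1 in 20. In invasive Kyse30 cells replicate 1, the library of 463124 counts, was low for ACTN4 at 476.7 CPM (the others 1394 to 1429.6), for MYL12A at 195.4 CPM (609 to 685) and for TPM1 at 0 CPM (84.8 to 98.6). The same library was high for FLNA at 743 CPM (408 to 446) and EZR at 1692 CPM (1135 to 1197). In FaDu with cetuximab, replicate 2 was high for FSCN1 at 337.4 CPM (260.1 to 268) and replicate 1 for ZYX at 104.6 CPM (66.2 to 72.2).

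The lines differed in their EGF change, as the Kyse30 change minus the FaDu change, for CAPG at 2.392, TPM1 at 2.254, LIMA1 at -1.828, FSCN1 at -1.421, VASP at -1.17 and TPM4 at -1.086 log2 units. With cetuximab they differed for LIMA1 at 1.753. With the MEK inhibitor they differed for LIMA1 at 2.195, VASP at 1.159 and FSCN1 at 1.001.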

How the results depend on the processing

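Without the 3 Kyse30 libraries that stand apart, the counts in Kyse30 were 30 for non-invasive over serum-free, 26 for cetuximab and 15 for the MEK inhibitor over non-invasive, 19 for cetuximab and 16 for the MEK inhibitor over serum-free, 6 between the agents and 1 for invasive over non-invasive, and the differences between lines gave 1, 4 and 9 calls for the invasive, cetuximab and MEK inhibitor changes. Dropping invasive replicate 1 alone from the shared Kyse30 fit, chosen after seeing the data, gave 31, 25, 17, 19, 13 and 5 for the first 6 of these. Groups compared alone gave 17 for cetuximab and 17 for the MEK inhibitor over non-invasive, 14 and 19 over serum-free, 4 between the agents in Kyse30, and in FaDu 7 between the agents and 4 for invasive cells. DESeq2 gave 9 for cetuximab over serum-free, 2 between the agents and 1 for invasive cells in Kyse30, 4 for invasive cells in FaDu, and 3 and 8 differences between lines with cetuximab and the MEK inhibitor. Limma-voom gave 17 for cetuximab and 11 for the MEK inhibitor in Kyse30 and 2 differences between lines with cetuximab. Library totals in place of TMM gave 1 for cetuximab over non-invasive, 11 for cetuximab and 12 for the MEK inhibitor over serum-free in Kyse30, 4 for invasive cells in FaDu and 2 differences between lines with cetuximab. Shares of all genes called moved between fits as well, such as 8.10% higher with EGF in Kyse30 over 20 libraries and 13.6% over 17. Such shares are not given for the other fits, so these counts show how calls move and not a result about the members. The cause was not tested.

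The replicate block left 1 call for the MEK inhibitor over serum-free in Kyse30 and otherwise gave counts within 1.5 times, such as 16 and 35 for EGF in Kyse30 and FaDu. Whether a replicate number links samples across groups is not stated in the labels. Deviations of same-numbered libraries correlated at -0.128 to 0.366 in Kyse30 and -0.206 to 0.328 in FaDu. Of these pairs, 6 of 40 and 8 of 40 were over 0.1. Differently numbered pairs gave -0.28 to 0.21 and -0.334 to 0.316, with 13 of 120 and 23 of 120 over 0.1. With 4 libraries per group these values cannot decide whether the numbers pair the samples.

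Leaving out 1 library gave, in Kyse30, 12 to 17 calls for EGF, 2 to 8 for cetuximab and 4 to 6 for the MEK inhibitor over non-invasive, 1 to 5 for cetuximab and 0 to 2 for the MEK inhibitor over serum-free, and 0 to 1 for invasive cells. In FaDu it gave 34 to 35, 16 to 24, 29 to 31, 28 to 31, 15 to 23 and 1 to 2 in the same order. Differences between lines gave 9 to 10 for EGF, 1 to 2 for cetuximab, 2 to 6 for the MEK inhibitor and 0 to 1 for invasive cells. Among smaller calls, CFL1 (without non-invasive 4 or serum-free 4), PXN (non-invasive 4 or serum-free 2) and TPM4 (non-invasive 4) lost their EGF call in Kyse30 at 0.94 to 0.99, 0.69 to 0.71 and 0.77, MYH9 its cetuximab call (cetuximab 3 or non-invasive 3) at -0.71, and MYL12B its EGF call in FaDu (serum-free 2 or 4) at 0.45. Of 3954 values of called members under the alternatives, 3665 kept their direction and side of the threshold, 289 kept the direction and lost the call, and 0 changed direction. These alternatives refit the same counts or most of them, so they are no independent support. Only members called in the main fit were followed, and members that gained a call are not among these values. Replicates of a group differed by more than counting noise in all 60 pairs, and 463124 counts in invasive Kyse30 replicate 1 limit what its low genes can show.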
